A study of Mus musculus with 7 samples.

Results

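The peroxiredoxins and the thioredoxin system were followed in 10 genes of the 24319 rows of an expression table of mouse embryos. The genes are Prdx1, Prdx2, Prdx3, Prdx4, Prdx5, Prdx6, Txn1, Txn2, Txnrd1 and Txnip, taken by symbol. All 10 were found, and all 10 passed the filter on low values that left 12271 genes for testing. These were cloned embryos. In somatic cell nuclear transfer (SCNT) a cumulus cell, one of those that surround the egg in the follicle, is injected into an oocyte whose own chromosomes have been taken out. In CROC+K+M (2 libraries) the recipient oocytes had been vitrified and warmed, and the treatment was 10 µM melatonin. In CROC+K (3 libraries) the oocytes had also been vitrified and warmed, without melatonin, and in FOC+K (2 libraries) they were fresh. All 3 groups share the strain label B6D2F1, the genotype label wild type, cumulus cells as the nuclear donors, an injection of Kdm4a mRNA, which encodes a histone H3K9 demethylase, and the 2-cell stage as the labelled age. Whether the untreated groups received a vehicle is given for the series and not for each library. Each library pooled 50 to 100 embryos, so differences between single embryos are not seen, and p-values measure the spread between these pools.

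Peroxiredoxins remove hydrogen peroxide and organic peroxides with a cysteine, the peroxidatic cysteine, that is oxidised in each cycle. In most family members a second cysteine then forms a disulfide with it, and thioredoxin reduces that disulfide. Thioredoxin in turn is reduced by thioredoxin reductase with electrons from NADPH, and Txnip binds reduced thioredoxin and blocks it. Oocytes and early embryos rely on mRNA and protein stored by the oocyte, and peroxide is one of the stresses linked to embryo culture and to freezing. Prdx1 and Prdx2 work in the cytosol, Prdx3 in mitochondria, Prdx4 in the endoplasmic reticulum, and Prdx5 in several compartments, mitochondria and peroxisomes among them. Prdx6 has a single catalytic cysteine and takes its electrons from glutathione instead of thioredoxin.

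The coding sequence around the catalytic cysteines shows how alike these genes are, and how far their reads can be told apart. Each line below gives 36 bases, 5′ to 3′, of the mouse coding sequence in the GENCODE vM21 transcripts, with the cysteine codon in capitals. For the peroxiredoxins it is the codon of the peroxidatic cysteine, codon 52 in Prdx1, 51 in Prdx2, 109 in Prdx3, 127 in Prdx4, 96 in Prdx5 and 47 in Prdx6. For both thioredoxins the capitals are the 2 cysteine codons of the active site, the first of which is codon 32 in Txn1 and codon 90 in Txn2.
Prdx1: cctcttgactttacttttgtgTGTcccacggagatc
Prdx2: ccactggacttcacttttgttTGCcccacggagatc
Prdx3: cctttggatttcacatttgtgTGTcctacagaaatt
Prdx4: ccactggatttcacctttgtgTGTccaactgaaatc
Prdx5: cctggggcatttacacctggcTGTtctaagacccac
Prdx6: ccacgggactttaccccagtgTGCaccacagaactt
Txn1: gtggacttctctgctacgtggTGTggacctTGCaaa
Txn2: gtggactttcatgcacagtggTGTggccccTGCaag

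Over their whole coding sequences the peroxiredoxins shared between 58.6% (Prdx1 and Prdx5) and 74.3% (Prdx2 and Prdx4) of aligned bases. The longest identical run between any 2 peroxiredoxin transcripts was 23 bases, in Prdx2 and Prdx4, and Txn1 and Txn2 shared 65.3% of aligned bases and a run of 10. The annotation also names pseudogenes after 4 of the 10 genes, 2 after Prdx2 and 1 each after Prdx1, Prdx6 and Txn1. How fragments were shared with these copies is not given in the sources used here, so the levels of those 4 genes are uncertain to that extent.

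The libraries held 10496 to 11518 genes at 1 FPKM (fragments per kilobase of transcript, scaled to the size of the library) or more. The depth is not given. Steps between low values imply 3890000 to 5890000 fragments per library if the libraries were not rescaled. Only depths within a preset window were searched, so a depth far outside this range could not have been found. At these implied depths the fewest fragments, about 19.7, were behind Prdx3 in CROC+K replicate 2. The lowest Txnrd1 value, in CROC+K replicate 3, rested on about 33.0. The library CROC+K+M replicate 1 stood apart. All 18 trophectoderm markers, genes of the outer cells of the blastocyst, were highest in it. Their sum was 27978 FPKM, 24404 of it from Fabp3, against 94.2 to 197 in the other 6 libraries. The defining marker Cdx2 was listed at 0 in those 6. The 10 markers of the inner cell mass, the inner cells of the blastocyst, did not stand apart. Of these, 2 were highest and 2 lowest in it. Their sum of 65.5 FPKM lay within 38.4 to 69.8, the range of the others. All 16 oocyte markers were at 1 FPKM or more in every library, and the 17 cumulus cell markers summed to 21.4 to 38.1 FPKM, with 28.0 in CROC+K+M replicate 1. Log2 fold changes and list medians that use CROC+K+M replicate 1 are therefore given with and without it, and what part another stage of the embryos has in it was not tested. In pooled embryos, fewer cells of a type and less RNA per cell cannot be told apart.

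The 2 cytosolic peroxiredoxins dominated. Prdx2 was the highest of the 10 genes in all 7 libraries, between the 99.7 and the 99.9 percentile of the tested genes, and Prdx1 was second in all 7, between the 99.2 and the 99.6 percentile. Over the 6 libraries without CROC+K+M replicate 1, the mean level in FPKM, a unit per transcript length, was 4750 for Prdx2, 1345 for Prdx1, 204 for Txn2, 189 for Prdx5, 138 for Prdx4, 52.1 for Txn1, 43.6 for Prdx6, 9.16 for Prdx3, 8.21 for Txnip and 4.65 for Txnrd1. The ranges of neighbours in this order were apart for Prdx2 and Prdx1, for Prdx1 and Txn2, and for Prdx6 and Prdx3, and overlapped for the other 6 pairs of neighbours. The reductase was the low end of the system: Txnrd1 was the lowest of the 10 in every library and lay between the 30.1 and the 55.3 percentile of the tested genes.

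**Figure D1:**
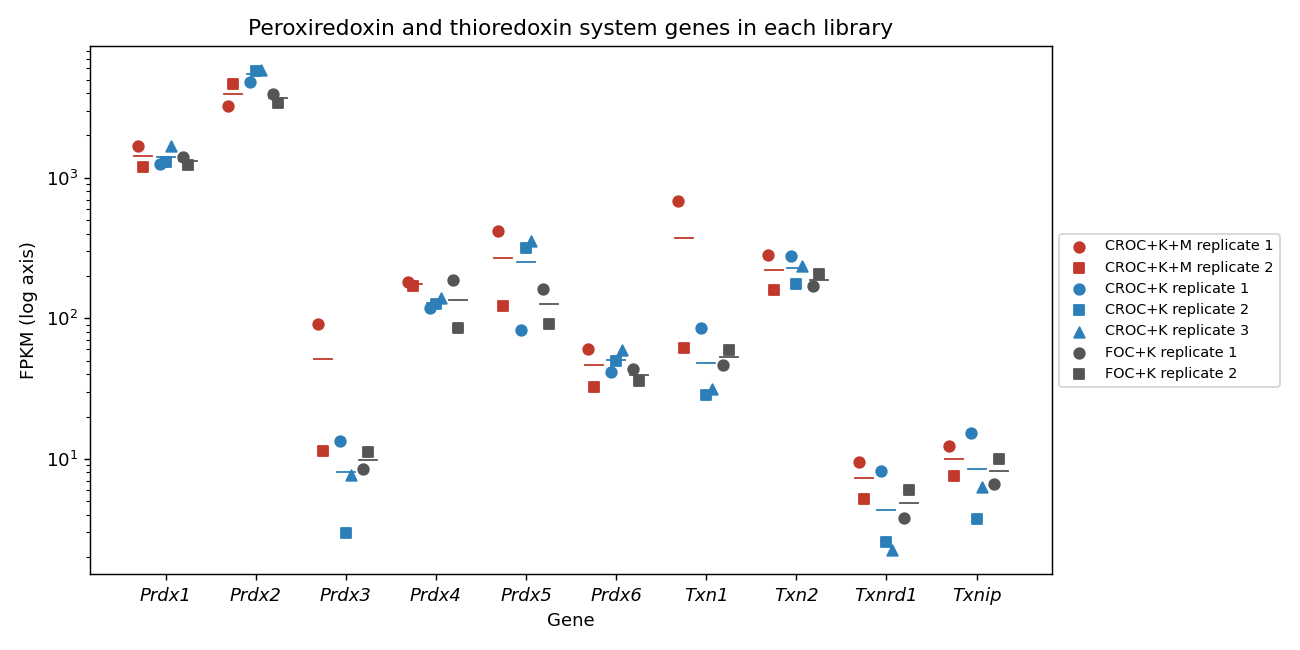
FPKM of the 10 genes (log axis) in each library, with CROC+K+M in red, CROC+K in blue and FOC+K in grey, symbols for the replicate and short lines for the group means. CROC+K+M replicate 1 stands far above the other libraries for Prdx3 (90.5 FPKM) and Txn1 (683 FPKM), while Prdx1, Prdx2 and Txn2 stay within a narrow band.

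Of the cytosolic pair, Prdx1 was the steadier between libraries. Prdx2, with a 1.82-fold range, had 3219 and 4669 FPKM in CROC+K+M, against 4831, 5794 and 5847 FPKM in CROC+K and 3975 and 3387 FPKM in FOC+K. Every CROC+K library was thus above every library of the other groups, and the lowest value was that of CROC+K+M replicate 1. Mean FPKM was 3944 ± 1025 in CROC+K+M (SD, n = 2), 5491 ± 572 in CROC+K (SD, n = 3) and 3681 ± 415 in FOC+K (SD, n = 2). Prdx1, the other cytosolic peroxidase, had 1677 and 1198 FPKM in CROC+K+M, 1244, 1295 and 1696 FPKM in CROC+K, and 1403 and 1233 FPKM in FOC+K. Its groups overlapped, and its highest level was 1.42 times its lowest, the narrowest spread of the 10 genes.

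Prdx4, the peroxidase of the secretory pathway, which takes part in oxidative protein folding, had 182 and 169 FPKM in CROC+K+M, 119, 127 and 140.3 FPKM in CROC+K, and 187 and 84.8 FPKM in FOC+K. Both CROC+K+M libraries were above all 3 CROC+K libraries, and the FOC+K libraries held both the highest and the lowest value. Prdx5, the atypical member whose disulfide forms within one protein chain, had 418 and 123 FPKM in CROC+K+M, 82.5, 319 and 356 FPKM in CROC+K, and 160.4 and 91.2 FPKM in FOC+K. Its libraries fell into high and low values within CROC+K+M and within CROC+K, over a 5.07-fold range, so no group was uniform. Prdx6, the single-cysteine member, which also has phospholipase activity, had 60.2 and 32.3 FPKM in CROC+K+M, 41.2, 49.3 and 59.7 FPKM in CROC+K, and 43.4 and 35.6 FPKM in FOC+K, with overlapping groups.

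Prdx3, the mitochondrial peroxidase, was low everywhere but in CROC+K+M replicate 1. It had 90.5 and 11.3 FPKM in CROC+K+M, 13.4, 2.98 and 7.61 FPKM in CROC+K, and 8.45 and 11.2 FPKM in FOC+K. Txn2, the mitochondrial thioredoxin that reduces Prdx3, did not share this spread. It had 282 and 159.6 FPKM in CROC+K+M, 279, 175 and 234 FPKM in CROC+K, and 169.8 and 206 FPKM in FOC+K, a 1.77-fold range with overlapping groups.

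Txn1, the cytosolic thioredoxin, had 683 and 61.9 FPKM in CROC+K+M, 85.2, 28.7 and 31.4 FPKM in CROC+K, and 46.5 and 59.1 FPKM in FOC+K. CROC+K+M replicate 1 was 8.02 times the next highest library, and CROC+K+M replicate 2 lay inside the range of CROC+K. Txnrd1, the cytosolic reductase, had 9.51 and 5.18 FPKM in CROC+K+M, 8.17, 2.57 and 2.24 FPKM in CROC+K, and 3.80 and 5.96 FPKM in FOC+K. Txnip, the inhibitor, had 12.3 and 7.53 FPKM in CROC+K+M, 15.2, 3.71 and 6.29 FPKM in CROC+K, and 6.60 and 9.90 FPKM in FOC+K. For both genes the CROC+K libraries alone spanned nearly the whole range, with replicate 1 the highest of the 3.

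Ratios within a library do not depend on how libraries were scaled to one another. Prdx2 made up 57.0% and 75.3% of the summed FPKM of the 6 peroxiredoxins in CROC+K+M, 76.3%, 76.4% and 72.1% in CROC+K, and 68.8% and 69.9% in FOC+K. The FOC+K shares lay below all CROC+K shares, and the share in CROC+K+M replicate 1 was the lowest. Prdx2 over Prdx1 was 1.92 and 3.90 in CROC+K+M, 3.88, 4.48 and 3.45 in CROC+K, and 2.83 and 2.75 in FOC+K, so the levels of the 2 cytosolic enzymes were closest in CROC+K+M replicate 1. Prdx3 was 1.60% and 0.183% of the peroxiredoxin sum in CROC+K+M, 0.212%, 0.0393% and 0.0939% in CROC+K, and 0.146% and 0.231% in FOC+K. Txn1 over Txn2, the cytosolic over the mitochondrial thioredoxin, was 2.42 and 0.388 in CROC+K+M, 0.305, 0.163 and 0.134 in CROC+K, and 0.274 and 0.287 in FOC+K. Txn2 was thus the higher of the 2 thioredoxins in 6 libraries, and Txn1 in CROC+K+M replicate 1. Txnip over Txn1, the inhibitor over its target, was 0.0180 and 0.122 in CROC+K+M, 0.178, 0.129 and 0.200 in CROC+K, and 0.142 and 0.167 in FOC+K. The 10 genes together took 0.652% and 0.886% of all FPKM in CROC+K+M, 1.17%, 0.977% and 1.03% in CROC+K, and 1.03% and 0.928% in FOC+K.

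**Figure D2:**
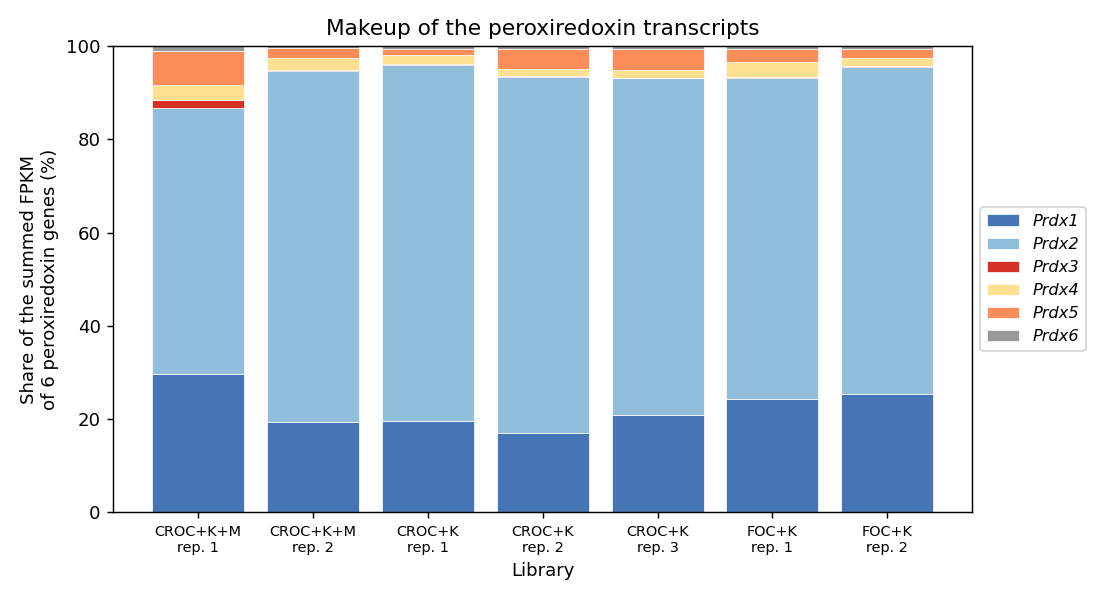
Share of each peroxiredoxin in the summed FPKM of the 6 (percent, stacked to 100), with 1 bar per library. Prdx2 fills 57.0% of the bar of CROC+K+M replicate 1 and 68.8% to 76.4% of the others.

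CROC+K was set against FOC+K to find differences that go with vitrification of the oocyte. None of the 10 genes passed the threshold, an adjusted p of 0.05 in limma over 12271 genes, and neither did any other gene (0.0% of all genes; 269 genes at an unadjusted p under 0.05, 1.13% of all genes higher and 1.06% lower, no member among them). Prdx2 had the smallest p of the 10. Its level was 5491 FPKM in CROC+K and 3681 FPKM in FOC+K on average, a log2 fold change of 0.58 ± 0.30 (SE) with adjusted p = 0.9996 in limma (0.134 to 1.0 over the alternatives). It was the 1 member whose CROC+K libraries all lay above the FOC+K libraries, as in 9.66% of all genes, and no member's lay all below, as in 9.47% of all genes. Without CROC+K replicate 1 its log2 fold change was 0.67 ± 0.26.

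On the log2 scale Prdx5 had the widest difference of the 10, with 253 ± 148 FPKM in CROC+K (SD, n = 3) and 126 ± 48.9 FPKM in FOC+K (SD, n = 2) and a log2 fold change of 0.80 ± 0.75 (SE). CROC+K replicate 1 decides that value: without it the log2 fold change was 1.47 ± 0.59. The other 8 log2 fold changes lay between -0.44 ± 0.85 (Prdx3) and 0.33 ± 0.34 (Prdx6), each within its error or close to it. Txn1, Txnrd1 and Txnip had lower means on the log2 scale, by -0.29 ± 0.93, -0.29 ± 0.53 and -0.15 ± 0.54. The median over the 10 genes was 0.059, beside -0.027 over all genes tested. With every library scaled to the same FPKM sum the median of all genes moved to -0.30, and Prdx2 was at 0.23 ± 0.32, Prdx5 at 0.46 ± 0.57.

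Melatonin was tested by setting CROC+K+M against CROC+K, both from vitrified oocytes. Again neither a member nor any other of the 12271 genes reached the threshold in limma (0.0%), while 1281 genes were at an unadjusted p under 0.05. Txn1 and Prdx3 were the 2 members among these, as 6.69% of all genes were with a higher mean in CROC+K+M, and no member was among the 3.75% of all genes there with a lower one. Txn1 averaged 373 ± 439.5 FPKM (SD, n = 2) in CROC+K+M and 48.4 ± 31.9 FPKM (SD, n = 3) in CROC+K, a log2 fold change of 2.25 ± 0.93 (SE) with adjusted p = 0.465 in limma. Prdx3 averaged 50.9 ± 56.0 FPKM (SD, n = 2) in CROC+K+M and 8.0 ± 5.22 FPKM (SD, n = 3) in CROC+K, a log2 fold change of 2.09 ± 0.85 (SE) with adjusted p = 0.464 in limma. In both genes the SD with melatonin was larger than the mean, and 1 of the 2 libraries carried the difference.

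CROC+K+M replicate 1 decides both values. Without it, the log2 fold change was 0.53 ± 0.61 for Txn1 and 0.64 ± 0.68 for Prdx3, with adjusted p = 0.826 and 0.807 in limma, and 0 members were at an unadjusted p under 0.05, where 4.02% of all genes were with a higher and 4.38% with a lower mean. When replicate 2 was the CROC+K+M library left out, so that replicate 1 alone stood for melatonin, Txn1 (3.97 ± 0.61, adjusted p = 0.0147 in limma) and Prdx3 (3.53 ± 0.67, adjusted p = 0.0307) passed the threshold beside 658 genes in all, 646 higher and 12 lower. In that fit the lone library is assumed to vary like the other groups. These adjusted p-values with and without each melatonin library are the lowest and the highest of the alternatives tried for both genes. Within the 4 libraries with low Rn45s, the ribosomal RNA precursor (CROC+K replicate 1 left out), the log2 fold change was 2.74 ± 1.13 for Txn1 and 2.52 ± 1.05 for Prdx3.

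**Figure D3:**
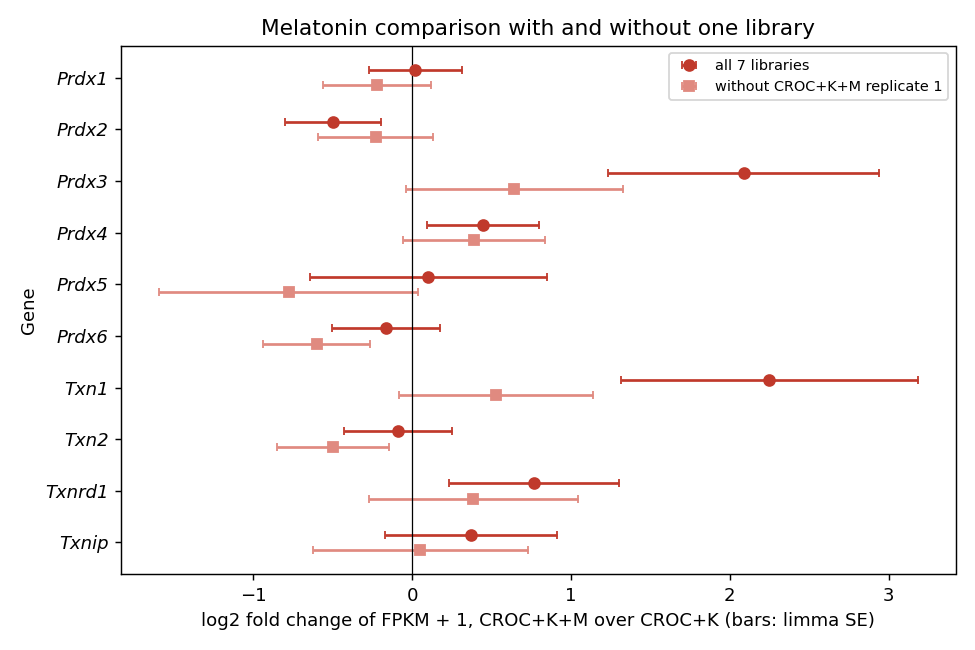
Log2 fold change of FPKM + 1, CROC+K+M over CROC+K, for the 10 genes with limma standard errors, from all 7 libraries (dark circles) and without CROC+K+M replicate 1 (light squares). The values of Txn1 (2.25 and 0.53) and Prdx3 (2.09 and 0.64) part most, and those of Prdx4 (0.44 and 0.39) least.

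Prdx4 was the 1 member whose CROC+K+M libraries were all above the CROC+K libraries, as in 12.3% of all genes, and Prdx2 the 1 member whose were all below, as in 11.2% of all genes. Prdx4 averaged 175 ± 9.48 FPKM (SD, n = 2) in CROC+K+M and 129 ± 10.8 FPKM (SD, n = 3) in CROC+K. Its log2 fold change was 0.44 ± 0.35 (SE) with adjusted p = 0.675 in limma. Without CROC+K+M replicate 1 it was 0.39 ± 0.45, so this value did not rest on that library. It did depend on scaling, with 0.19 ± 0.36 when every library had the same FPKM sum. By percentile of the tested genes the Prdx4 groups overlapped, with 93.3 in CROC+K+M replicate 1 and 93.6 in CROC+K replicate 1. The log2 fold change of Prdx2 was -0.50 ± 0.30 (adjusted p = 0.585 in limma), and -0.23 ± 0.36 without CROC+K+M replicate 1. With equal FPKM sums over all 7 libraries it was -0.75 ± 0.32 (adjusted p = 0.488 in limma). Txnrd1 was at 0.77 ± 0.53 and at 0.38 ± 0.66 without CROC+K+M replicate 1, and Txnip at 0.37 ± 0.54 and 0.052 ± 0.68.

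Prdx5 and Prdx1 had the opposite sign once CROC+K+M replicate 1 was left out. Prdx5 was at 0.10 ± 0.75 with the library and at -0.78 ± 0.81 without it, and Prdx1 at 0.020 ± 0.29 and -0.22 ± 0.34. Prdx6, at -0.16 ± 0.34 and -0.60 ± 0.34, and Txn2, at -0.087 ± 0.34 and -0.50 ± 0.35, were negative both times and further from 0 without it. On the log2 scale 7 of the 10 means were higher with melatonin over all libraries, and 5 of 10 without that library. The median over the 10 genes was 0.24, beside 0.058 over all genes, and -0.085 beside 0.033 without the library. Without it, the remaining melatonin library was above all CROC+K libraries in Prdx4, as in 25.9% of all genes. It was below all of them in Prdx1, Prdx2, Prdx6 and Txn2, as in 23.2% of all genes.

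The comparison of CROC+K+M with FOC+K sets melatonin-treated embryos from vitrified oocytes against embryos from fresh ones, and it shares its libraries with the other comparisons. No member and no other gene passed the threshold in limma (0.0%; 792 genes at an unadjusted p under 0.05, 4.45% of all genes higher and 2.0% lower, no member among them). The FPKM sums were larger in CROC+K+M (1017995 and 726297) than in FOC+K (585039 and 552356). With every library scaled to the same sum, only Prdx3, Prdx5 and Txn1 of the 10 had higher means, and the median of all genes was -0.44. Unscaled, all 10 log2 means were higher in CROC+K+M, as in 6486 of 12271 genes, with a median of 0.35 beside 0.037 over all genes. Without CROC+K+M replicate 1 this held for 6 of 10, with a median of 0.058 beside 0.018, and again no member was at an unadjusted p under 0.05 (2.62% of all genes higher and 2.53% lower). Txn1 was at 1.96 ± 1.02 (adjusted p = 0.763 in limma) and at 0.24 ± 0.65 without the library, and Prdx3 at 1.65 ± 0.93 (adjusted p = 0.781) and 0.20 ± 0.72. These 2 genes were the members whose CROC+K+M libraries all lay above the FOC+K libraries, as in 21.3% of all genes, and none lay all below, as in 19.8%. The melatonin library that remained without replicate 1 was above both FOC+K libraries in Prdx2, Prdx3 and Txn1, as in 40.0% of all genes, and below both in Prdx1, Prdx6 and Txn2, as in 37.4%. Prdx5 was at 0.90 ± 0.82 and at 0.020 ± 0.86 without the library, and Prdx4 at 0.47 ± 0.39 and 0.42 ± 0.48. Prdx2 was at 0.079 ± 0.33 (0.35 ± 0.38 without the library), with 3944 ± 1025 FPKM (SD, n = 2) in CROC+K+M and 3681 ± 415 FPKM (SD, n = 2) in FOC+K. With only CROC+K+M replicate 1 kept in its group, 546 genes passed, Txn1 the 1 member among them (3.68 ± 0.64, adjusted p = 0.0257 in limma, with 0.0257 to 1.0 over the alternatives).

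Set against the 6 other libraries, CROC+K+M replicate 1 had the highest level of 6 members, Prdx3, Prdx5, Prdx6, Txn1, Txn2 and Txnrd1, where 26.7% of all genes were highest in it. For Prdx5, Prdx6, Txn2 and Txnrd1 it exceeded the next library by a factor of 1.17, 1.01, 1.01 and 1.16. Its FPKM sum was also the largest, at 1017995 against 552356 to 814958 in the others. By percentile of the tested genes, Prdx5, Prdx6 and Txn2 were not highest in it. They were at 96.6, 84.8 and 95.2 there, and reached 97.1, 86.6 and 97.5 in other libraries. Txnrd1 was at 55.3 there and at most 54.7 elsewhere. Prdx2 was the 1 member that was lowest in CROC+K+M replicate 1, as 18.0% of all genes were. Txn1 and Prdx3 were the 2 that stood at least 4 times above every other library on the FPKM + 1 scale, as 3.59% of all genes did. In FPKM they were 8.02 and 6.76 times the next highest library. These values describe 1 library and have no replicate check.

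Among the 6 libraries without CROC+K+M replicate 1, 6 of the 10 genes ran with or against the level of Kdm4a, the injected mRNA. The rule was a Spearman's rho of 0.82 or higher, as in 7.54% of all genes, or -0.82 or lower, as in 10.3%. Of the 6 genes, Prdx6 and Txnip did not meet it with every library scaled to the same FPKM sum. The levels of 5 are given by library. The genes were chosen for this description after their values were seen. Kdm4a differed widely within groups. In order of its level the libraries were CROC+K replicate 1 (497 FPKM), CROC+K+M replicate 2 (689), FOC+K replicate 2 (816), FOC+K replicate 1 (2014), CROC+K replicate 2 (4051) and CROC+K replicate 3 (4949). In that order of libraries Txn1 was at 85.2, 61.9, 59.1, 46.5, 28.7 and 31.4 FPKM, lower in each library than in the one before but for the last step. Txnrd1 was at 8.17, 5.18, 5.96, 3.80, 2.57 and 2.24 FPKM. The thioredoxin and its reductase thus had their highest levels in the library with the least Kdm4a and their lowest in the 2 with the most.

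Prdx3, in the same order of libraries, was at 13.4, 11.3, 11.2, 8.45, 2.98 and 7.61 FPKM, and Txnip at 15.2, 7.53, 9.90, 6.60, 3.71 and 6.29 FPKM. Prdx5 ran the other way, at 82.5, 123, 91.2, 160.4, 319 and 356 FPKM. Prdx5 over Txn1, a ratio free of library scaling, was 0.968, 1.98, 1.54, 3.45, 11.1 and 11.3 in that order, and 0.612 in CROC+K+M replicate 1. Within CROC+K, replicate 1 had the lowest Kdm4a and Prdx5 and the highest Txn1, Txnrd1, Prdx3 and Txnip of the 3 libraries. Within FOC+K, replicate 2, with less Kdm4a than replicate 1, had less Prdx5 and more of those 4 genes.

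**Figure D4:**
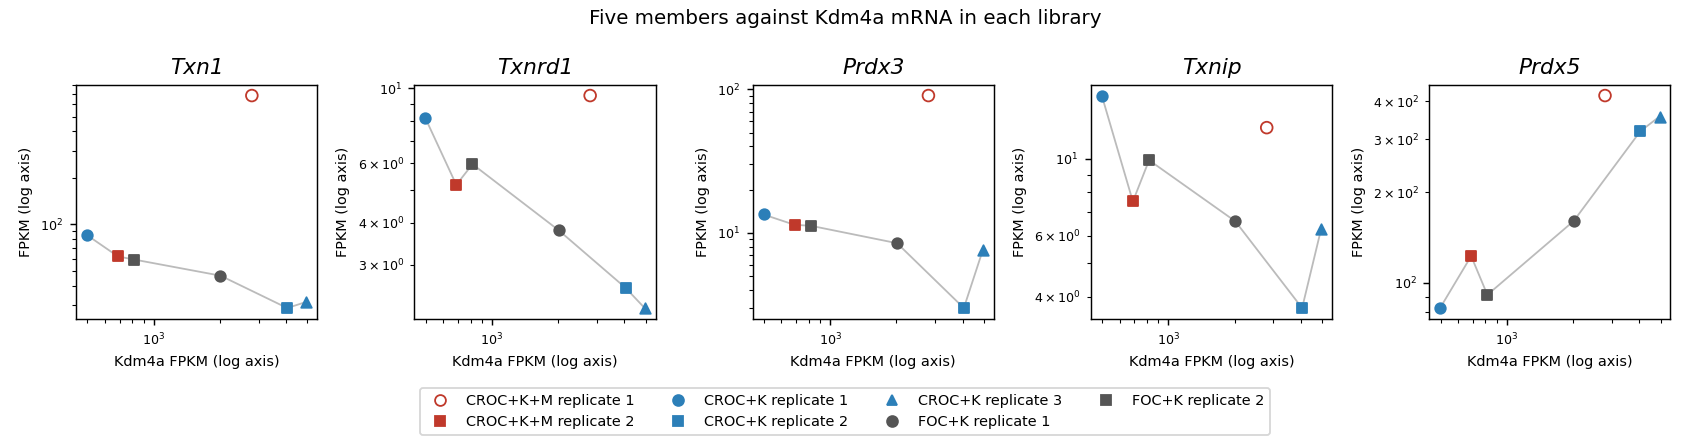
FPKM of Txn1, Txnrd1, Prdx3, Txnip and Prdx5 against the FPKM of Kdm4a in each library (both axes log). Grey lines join the 6 libraries in order of Kdm4a, and the open red circle is CROC+K+M replicate 1, which is not joined. From the lowest to the highest Kdm4a, Txn1 goes down to 28.7 and 31.4 FPKM and Prdx5 goes up to 319 and 356 FPKM.

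As a description over these 6 libraries, with Kdm4a on the log2 scale, Spearman's rho was -0.94 for Txn1, Txnrd1 and Prdx3, -0.89 for Txnip, 0.94 for Prdx5 and 0.83 for Prdx6. Pearson's r was -0.98 for Txn1, -0.98 for Txnrd1, -0.80 for Prdx3, -0.83 for Txnip, 0.97 for Prdx5 and 0.85 for Prdx6. Over the 4 libraries nearest the median of Kdm4a, r was -0.93 for Txn1, -0.91 for Txnrd1 and -0.99 for Prdx3. It was -0.78 for Txnip, 0.86 for Prdx5 and 0.44 for Prdx6. These 4 had the lowest Kdm4a of the 6, and the 2 left out were CROC+K replicates 2 and 3, with the highest. The relation of Prdx6 was thus weaker without those 2. Of all genes tested, 10.3% had a rho of -0.82 or lower, as 4 of the 10 members did, and 7.54% had a rho of 0.82 or higher, as 2 did. With every library scaled to the same FPKM sum the shares of all genes were 12.5% and 3.17%. Past the same rho values were then 3 members (Prdx3, Txn1, Txnrd1) and 1 member (Prdx5), with rho of 0.31 for Prdx6 and -0.77 for Txnip. With CROC+K+M replicate 1 included, where Kdm4a was at 2797 FPKM, rho was -0.61 for Txn1, Txnrd1 and Prdx3, -0.71 for Txnip and 0.86 for Prdx5. The other members did not follow Kdm4a as closely, with rho of 0.77 for Prdx1, 0.49 for Prdx2, 0.26 for Prdx4 and -0.029 for Txn2.

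The summed level of 20 markers of the 2-cell embryo, genes switched on when the embryo starts its own transcription, ran with Kdm4a. In the order of the 6 libraries above it was 228, 313, 295, 759, 1284 and 1890 FPKM, and 682 FPKM in CROC+K+M replicate 1. Of these markers Tcstv1 and Tcstv3 were at 0 in all libraries. In the same order Rn45s was at 2114, 175.4, 1047, 1183, 265.7 and 237 FPKM, which did not follow Kdm4a. The part of embryo timing or of the Kdm4a dose in the levels of Txn1, Txnrd1, Prdx3, Txnip and Prdx5 was not tested.

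The 250 bases before the transcription start are shown for the members with the widest ranges, Txn1, Prdx3 and Prdx5, and for Txnrd1, which moved with Txn1. They are from RefSeq on build GRCm38.p6, 5′ to 3′ on the strand of the gene, with matches to the searched motifs in capitals. Txn1 is at chr4:57956412-57956661 (minus strand), Prdx3 at chr19:60874539-60874788 (minus strand), Prdx5 at chr19:6910107-6910356 (minus strand) and the Txnrd1 start shown at chr10:82858956-82859205 (plus strand).
Txn1: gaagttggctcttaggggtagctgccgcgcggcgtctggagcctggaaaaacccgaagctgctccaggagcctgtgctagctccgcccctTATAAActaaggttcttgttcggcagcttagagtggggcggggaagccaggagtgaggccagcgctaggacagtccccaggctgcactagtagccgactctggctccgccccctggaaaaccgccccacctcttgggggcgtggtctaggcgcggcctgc
Prdx3: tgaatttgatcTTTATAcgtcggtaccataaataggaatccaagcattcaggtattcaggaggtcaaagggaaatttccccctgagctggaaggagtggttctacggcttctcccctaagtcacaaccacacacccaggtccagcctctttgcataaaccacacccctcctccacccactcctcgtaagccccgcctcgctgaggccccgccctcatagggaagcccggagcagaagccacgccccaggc
Prdx5: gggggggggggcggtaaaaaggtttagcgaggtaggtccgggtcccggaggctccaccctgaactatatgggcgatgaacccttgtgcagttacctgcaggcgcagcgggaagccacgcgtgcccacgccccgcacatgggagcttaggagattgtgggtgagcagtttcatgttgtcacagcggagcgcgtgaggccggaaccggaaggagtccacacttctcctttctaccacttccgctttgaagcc
Txnrd1: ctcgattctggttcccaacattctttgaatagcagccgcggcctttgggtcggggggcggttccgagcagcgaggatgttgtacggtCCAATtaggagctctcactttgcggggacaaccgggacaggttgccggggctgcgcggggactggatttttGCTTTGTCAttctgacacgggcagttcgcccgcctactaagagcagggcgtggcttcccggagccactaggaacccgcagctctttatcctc

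Promoters of 9 of the 10 genes were matched, 11 in all, 3 of them of Txnrd1. The search took 4 motifs, on both strands. TGACNNNGC, the core of the antioxidant response element that NRF2 binds, was in the Txnrd1 promoter shown, at -92 to -84 from the start, and in that of Prdx1, at -133 to -125, and in 10.2% of 32851 promoters. TATAAA was in those of Txn1 (-160 to -155), Prdx3 (-239 to -234) and Prdx1 (-29 to -24), and in 12.4% of all. CCAAT was in the Txnrd1 promoter shown, in those of Txn2, Prdx4 and Txnip and in 33.8% of all. CACGTG was in that of Prdx4 and in 6.02% of all. The Prdx5 window held none of the 4, nor did the other Txnrd1 windows. Txn1, Txnrd1 and Prdx3, whose levels went with each other over the 6 libraries, shared no motif of the 4 across all of their windows.

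Genes with the most similar pattern over the 7 libraries were named for the 3 members with the widest range of log2(FPKM + 1), by Pearson's r on that scale. For Txn1 they were Blvrb, which encodes biliverdin reductase B (r = 0.997 over 7 libraries, 0.97 over 6 without CROC+K+M replicate 1), Ndufc2, a subunit of respiratory complex I (0.996 and 0.97), and Mpzl2, a cell adhesion gene (0.995 and 0.96). Over 7 libraries 205 genes had r of 0.95 or higher with Txn1. Clone and Riken names were left out of the genes named, but not of this count and those below. Blvrb was at 78.1 and 7.86 FPKM in CROC+K+M, 9.14, 3.02 and 3.32 FPKM in CROC+K, and 6.48 and 7.34 FPKM in FOC+K, the same order as Txn1 in which CROC+K replicates 2 and 3 were lowest. For Prdx3 they were Gtpbp6, Gprc5a, a retinoic acid-induced receptor gene, and Tbrg1 (r of 0.997, 0.994 and 0.993, and 0.99, 0.97 and 0.97 over 6), with 157 genes at 0.95 or higher. For Prdx5 they were Slc31a1, the copper importer gene, Stk31, a germ cell kinase gene, and Prr13 (r of 0.9996, 0.985 and 0.981, and 0.9996, 0.99 and 0.98 over 6), with 36 genes at 0.95 or higher. Slc31a1 was at 31.8 and 12.1 FPKM in CROC+K+M, 8.68, 26.1 and 29.0 FPKM in CROC+K, and 15.3 and 9.84 FPKM in FOC+K, and its likeness to Prdx5 did not rest on CROC+K+M replicate 1. These r values run over the same 7 libraries and share their scaling.

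Among themselves, 7 of the members formed 2 sets of like pattern, described after the values were seen. Over the 6 libraries Txn1 and Txnrd1 had r = 0.98, Txn1 and Txnip 0.91, Txn1 and Prdx3 0.87, and Prdx3 and Txnip 0.90, on the log2(FPKM + 1) scale. Prdx5 and Prdx6 had r = 0.82, Prdx1 and Prdx6 0.86, and Prdx5 and Prdx1 0.72. These r values use FPKM as deposited. With equal FPKM sums, rho with Kdm4a fell from 0.77 to -0.20 for Prdx1 and from 0.83 to 0.31 for Prdx6. It stayed at 0.94 for Prdx5, and how far this set holds after that scaling was not tested. Across the sets, Prdx5 had r = -0.96 with Txn1 and -0.98 with Txnrd1. Prdx4 and Txn2 were in neither set: Prdx4 had r of at most 0.32 with any member, and Txn2 had 0.65 with Txnip and at most 0.37 with the others. Prdx2 was not put in a set, with r = 0.73 with Prdx5, 0.68 with Prdx6 and 0.45 with Prdx1. With CROC+K+M replicate 1 included, Prdx5 had 0.22 with Txn1 and -0.36 with Txnrd1, while Txn1 and Prdx3 stood at 0.98 and Txn1 and Txnrd1 at 0.82.

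A list of partners and relatives of these proteins held 38 genes. It took in sulfiredoxin and sestrins, further thioredoxin-like and TMX proteins, arrestin-domain relatives of Txnip, methionine sulfoxide reductases and ribonucleotide reductase. Of the 38, 32 were tested and 0 passed in limma in any of the 3 comparisons. For CROC+K against FOC+K 14 had a higher and 18 a lower mean, with a median log2 fold change of -0.044 beside -0.027 over all genes, and 0 were at an unadjusted p under 0.05. Txndc15, a thioredoxin-domain protein gene, was at -1.13 ± 0.50, Txndc9 at 0.59 ± 0.31, Rrm2, the small subunit of ribonucleotide reductase, at 0.55 ± 0.32, and Tmx1, a membrane-bound thioredoxin of the endoplasmic reticulum, at -0.84 ± 0.50.

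With melatonin (CROC+K+M against CROC+K) the mean was higher in 19 of the 32 and lower in 13. Their median was 0.056, beside 0.058 over all genes, and 1 was at an unadjusted p under 0.05. Without CROC+K+M replicate 1 the balance turned, with 14 higher and 18 lower and a median of -0.075 beside 0.033. The 1 gene at an unadjusted p under 0.05 in limma over all libraries was Msrb2, a mitochondrial methionine sulfoxide reductase gene. It was at 6.52 and 1.35 FPKM in CROC+K+M and listed at 0 in all 3 CROC+K libraries, so no fold is given. In FOC+K it was listed at 0 and 0.170 FPKM. Arrdc3, a relative of Txnip, was at -1.12 ± 0.56, Txndc15 at 0.98 ± 0.50 and Txnl4a, a spliceosome protein with a thioredoxin fold, at 0.90 ± 0.47. Without CROC+K+M replicate 1 these 3 were at -1.12, 0.75 and 0.85. Against FOC+K, 16 of the 32 were higher in CROC+K+M (median 0.081 beside 0.037), and 1 (Msrb2) was at an unadjusted p under 0.05. Without CROC+K+M replicate 1, 13 were higher and 19 lower, and the median turned to -0.12 beside 0.018. Txndc9 was at 0.78 ± 0.34, Arrdc3 at -1.23 ± 0.62 and Sesn2, a stress-induced sestrin gene, at -0.83 ± 0.53, and without that library they were at 0.65, -1.23 and -1.27.

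NRF2, encoded by Nfe2l2, is the transcription factor that switches on Txnrd1, Prdx1 and other antioxidant genes. Of 30 genes of its pathway and targets, 29 were tested and 0 passed in limma in any comparison. For CROC+K against FOC+K 13 had a higher and 16 a lower mean (median -0.19, beside -0.027 over all genes), with Mafg, a small Maf partner of NRF2, at -0.62 ± 0.32, Cbr1, a carbonyl reductase gene, at -1.81 ± 0.94, Abcc4, an export pump gene, at 0.80 ± 0.53 and Ftl1, the ferritin light chain gene, at 0.73 ± 0.49. With melatonin 22 of these were higher and 7 lower, with a median over CROC+K of 0.44 beside 0.058. Without CROC+K+M replicate 1 the numbers were 15 and 14 (median 0.14 beside 0.033).

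Gsta4, a glutathione transferase gene that clears lipid aldehydes, was the 1 gene of the NRF2 list at an unadjusted p under 0.05 for CROC+K+M against CROC+K. It had 244 and 97.8 FPKM in CROC+K+M, 57.5, 20.5 and 57.9 FPKM in CROC+K, and 40.4 and 69.3 FPKM in FOC+K. Both melatonin libraries were above all 5 others. Of all genes, 12.3% had both above the CROC+K libraries and 21.3% had both above the FOC+K libraries. The share above all 5 was not counted. The log2 fold change of Gsta4 was 1.89 ± 0.58 (adjusted p = 0.408 in limma), and 1.23 without CROC+K+M replicate 1. Nqo1, the quinone reductase gene often read as a sign of NRF2 activity, was at -1.08 ± 0.49, Esd at 1.41 ± 0.66 and Bach1, a repressor of NRF2 targets, at 0.62 ± 0.30. Without CROC+K+M replicate 1 these 3 were at -1.01, 0.47 and 0.42, and Esd had 57.4 FPKM in that library beside 14.7 in CROC+K+M replicate 2. Against FOC+K, 18 of the 29 were higher in CROC+K+M (median 0.36 beside 0.037), and 15 without CROC+K+M replicate 1 (median 0.11 beside 0.018). Ftl1 was at 1.68 ± 0.54, Gsta4 at 1.53 ± 0.63, Abcc4 at 1.18 ± 0.58 and Esd at 1.43 ± 0.73, and without that library they were at 0.87, 0.87, 0.43 and 0.48.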

How the data were processed

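RNA of SCNT embryo pools was sequenced in 7 libraries. RNA with an integrity number above 7.0 was made into libraries with SMARTer Ultra Low Input and ScriptSeq v2 kits, per the labels' protocols. The deposited table gives 1 FPKM per gene symbol and library, made by the authors. The submitters' processing notes name build mm9 and the tools Cuffnorm, Cufflinks 2.2.1, STAR 2.5.2b and R 3.3.2. For the annotation and any scaling between libraries nothing is stated in the sources used here.

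FPKM were used as deposited on the log2(FPKM + 1) scale, which understates changes of low genes. Genes at 1 FPKM or more in 2 or more libraries were tested (12271), leaving out 1302 rows of small RNA and ribosomal RNA genes. limma 3.58.1 (R 4.3.3) with an intensity trend was fitted once to all libraries by group alone, leaving 4 residual degrees of freedom. Two-sided p-values had Benjamini-Hochberg adjustment over all tested genes and a threshold of 0.05. Errors are limma's SE, or SD of FPKM. Python 3.11.15, pandas 2.3.3 and matplotlib 3.10.9 served the rest.

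Groups and replicate numbers are from the titles. Numbers were not taken as pairs, since the labels give no pairing. The deviations of same-numbered libraries from their group means had correlations of -0.46 to 0.030. In a group of 2 libraries these deviations mirror each other, so the correlations cannot exclude a shared batch. The coding sequences are from the GENCODE vM21 transcripts, of another build than the table, so no gene positions from the table are given. Motifs were searched in 250 bases before each RefSeq start.

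The 10 genes and all gene lists were chosen with earlier results of these data known. The rule for named genes takes all 10 members and, per comparison, the 4 partner and the 4 NRF2 genes with the smallest unadjusted p at a mean of 1 FPKM or more. It adds the 3 genes most like each of the 3 members with the widest range, leaving out clone and Riken names. Alternatives were another pseudocount (0.1), no filter or a mean of 5 FPKM, equal FPKM sums, quantile normalization, a replicate block, array weights, only the 2 groups compared, the 4 libraries with low Rn45s, and leaving out each library. Leaving out both CROC+K replicate 1 and CROC+K+M replicate 1 was added after the data were seen.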

Additional observations from a re-analysis of the deposited data

How the results depend on the processing

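No member passed the threshold under any of the 7 alternatives that keep all 7 libraries, in fits of only the 2 groups compared, in the 4 libraries with low Rn45s, or with both doubted libraries left out. The number of all genes past it was 0 to 658 and of members 0 to 2 for CROC+K+M against CROC+K when each library was left out in turn. These numbers were 0 to 546 and 0 to 1 for CROC+K+M against FOC+K, and 0 throughout for CROC+K against FOC+K. The highest numbers came without CROC+K+M replicate 2. With the replicate number as a block 0 genes passed in each comparison, and 96, 707 and 542 genes were at an unadjusted p under 0.05 in place of 269, 1281 and 792. The labels do not say that the numbers pair the libraries.

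Signs of small log2 fold changes turned in 35 values. With equal FPKM sums, where the medians of all genes were -0.30, -0.14 and -0.44, CROC+K against FOC+K gave -0.26 for Prdx1, -0.31 for Prdx4, -0.0083 for Prdx6 and -0.070 for Txn2. CROC+K+M against CROC+K gave -0.23 for Prdx1 and -0.15 for Prdx5. CROC+K+M against FOC+K gave -0.49 for Prdx1, -0.52 for Prdx2, -0.12 for Prdx4, -0.42 for Prdx6, -0.41 for Txn2, -0.31 for Txnip and -0.035 for Txnrd1. After quantile normalization CROC+K against FOC+K gave -0.30 for Prdx1 and -0.19 for Prdx4, CROC+K+M against CROC+K gave -0.37 for Prdx1 and -0.14 for Prdx5, and CROC+K+M against FOC+K gave -0.67 for Prdx1, -0.50 for Prdx2, -0.10 for Prdx6 and -0.41 for Txn2. For CROC+K against FOC+K the replicate block gave -0.052 for Prdx1 and -0.033 for Prdx4. In the melatonin comparison, array weights gave -0.0063 for Prdx1, -0.26 for Prdx5 and 0.018 for Txn2, and the 4 libraries with low Rn45s gave -0.064, -0.57 and 0.066. With both doubted libraries left out, CROC+K+M against CROC+K gave -0.31 for Prdx1 and -1.45 for Prdx5, and CROC+K+M against FOC+K gave -0.13 for Prdx1, -0.27 for Prdx6, -0.23 for Txn2 and -0.094 for Txnip. The cause was not tested.

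Over the fits that leave out 1 library each, the signs of these also turned. CROC+K against FOC+K ran from -0.052 to 0.18 for Prdx1, -0.87 to 0.054 for Prdx3, -0.53 to 0.59 for Prdx4 and -0.64 to 0.26 for Txnip. CROC+K+M against CROC+K ran from -0.22 to 0.26 for Prdx1, -0.78 to 0.98 for Prdx5, -0.60 to 0.28 for Prdx6, -0.50 to 0.32 for Txn2 and -0.030 to 0.86 for Txnip. CROC+K+M against FOC+K ran from -0.13 to 0.35 for Prdx1, -0.19 to 0.35 for Prdx2, -0.091 to 1.04 for Prdx4, -0.27 to 0.60 for Prdx6, -0.23 to 0.59 for Txn2 and -0.094 to 0.55 for Txnip. Under every alternative tried, Prdx3 and Txn1 had positive log2 fold changes in both comparisons with CROC+K+M. Groups of 2 and 3 libraries, and the few fragments implied for Prdx3 and Txnrd1, limit what could be seen.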
